A study of Mus musculus with 17 samples.

Results

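Open chromatin was compared between BMDM-Nur77-KO and BMDM-WT after 1 h of lipopolysaccharide (LPS), the bacterial cell wall component that activates toll-like receptor 4. The comparison rests on 5 deposited peak lists of ATAC-seq, which maps the DNA that the transposase Tn5 can reach, 3 from BMDM-Nur77-KO and 2 from BMDM-WT, out of 17 in the series. BMDMs are macrophages grown from mouse bone marrow, here from male C57Bl6/J mice of 6 to 12 weeks, with macrophage growth factor supplied by L929-conditioned medium. The knockout carried a whole-body deletion of Nr4a1, made with a CMV-Cre driver and bred on without Cre, and littermates served as WT. The sample labels give the genotypes as cre and wt, with KO in the titles, and the sources used here do not settle whether the KO samples carried Cre. Both genotypes received 100 ng/ml LPS for 1 h, and lists at 0 h (no LPS) and 18 h, with 3 lists per genotype each, were used to place the differences in time. The 2 WT lists of 1 h carry the replicate labels 1-2 and 3, although the design text gives 3 samples for every group, and what 1-2 stands for is not given in the sources used here. No source states that the lists came from separate animals, so the p-values measure the spread between these samples only.

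To give every list the same weight, identical intervals were collapsed, peaks were ranked by significance (rank 1 being the most significant) and the best 24389 of each list were kept, the size of the shortest list. Overlapping peaks of the 5 lists were merged, and the 26143 regions seen in at least 2 of them are called sites. A site was KO-only when it carried a kept peak in all 3 KO lists and in neither WT list, and WT-only in the reverse case. This gave 455 KO-only and 294 WT-only sites, while 16068 sites (61.5%) carried a peak in all 5 lists.

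Nur77, the product of Nr4a1, is an orphan nuclear receptor that is induced rapidly by LPS in macrophages. It binds as a monomer to the NGFI-B response element (NBRE), and it is known to restrain inflammatory transcription, including that driven by NF-kB and AP-1. AP-1 factors are dimers of the Fos, Jun and Atf families. NF-kB and AP-1 together open enhancers and promoters of cytokine and chemokine genes within the first hour of LPS. An ATAC-seq peak marks a stretch of DNA that the transposase can reach and not the factor that opened it.

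The motif of Nur77 itself is shown first, because WT-only and KO-only sites differed in how often they held it. Of the 294 WT-only sites, 9 held the NBRE letters AAAGGTCA, on either strand, within 100 bp of the summit, and of the 455 KO-only sites 0 did. The 9 stretches are given below from GRCm38 (mm10), read 5′ to 3′ on the strand that carries the motif, with the motif in capitals, and each is named after the gene with the nearest protein-coding start site. These sites were chosen after their values were seen.
Rngtt, chr4:33338103-33338140, plus strand: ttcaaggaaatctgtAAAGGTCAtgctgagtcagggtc
Map4, chr9:109948623-109948660, plus strand: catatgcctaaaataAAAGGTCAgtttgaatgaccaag
Itga5, chr15:103383003-103383040, plus strand: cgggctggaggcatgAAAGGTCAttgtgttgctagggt
Vat1, chr11:101463000-101463037, plus strand: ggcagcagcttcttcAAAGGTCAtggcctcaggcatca
Rad51b, chr12:79646753-79646790, plus strand: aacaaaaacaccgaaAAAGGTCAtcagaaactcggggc
Stk35, chr2:129903518-129903555, plus strand: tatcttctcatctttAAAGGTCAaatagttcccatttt
Plekhm1, chr11:103396815-103396852, plus strand: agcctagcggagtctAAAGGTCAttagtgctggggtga
Lrrfip1, chr1:91069845-91069882, minus strand: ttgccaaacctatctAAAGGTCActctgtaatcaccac
Dusp5, chr19:53479694-53479731, plus strand: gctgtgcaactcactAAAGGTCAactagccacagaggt

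The promoters of Cxcl1 and Cxcl2, a pair of neutrophil-attracting chemokine genes, are shown because their peaks ranked higher in both WT lists than in every KO list at 1 h. Each sequence runs from 250 bases before to 50 after the RefSeq start site on GRCm38.p6, and capitals mark matches to the NF-kB consensus, found on both strands and overlapping each other. Such a match lay in 4.51% of the 32851 RefSeq promoters of the same length. Neither promoter window held an AP-1 motif (TGAGTCA or TGACTCA) or an NBRE. A match describes the letters and is not evidence of binding, and it does not go with one order of the genotypes. The Fos promoter and 1 of the 3 Maff promoters, where KO ranked better, held a match too, and those of the WT-only sites at Trim30d and Cysltr2 held none.
Cxcl1, chr5:90890995-90891294, plus strand: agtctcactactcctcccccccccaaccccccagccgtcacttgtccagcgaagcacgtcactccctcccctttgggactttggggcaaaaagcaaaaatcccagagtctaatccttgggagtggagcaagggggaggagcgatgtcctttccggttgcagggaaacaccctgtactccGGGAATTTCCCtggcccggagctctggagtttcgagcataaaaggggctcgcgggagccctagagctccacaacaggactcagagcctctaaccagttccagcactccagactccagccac
Cxcl2, chr5:90903649-90903948, plus strand: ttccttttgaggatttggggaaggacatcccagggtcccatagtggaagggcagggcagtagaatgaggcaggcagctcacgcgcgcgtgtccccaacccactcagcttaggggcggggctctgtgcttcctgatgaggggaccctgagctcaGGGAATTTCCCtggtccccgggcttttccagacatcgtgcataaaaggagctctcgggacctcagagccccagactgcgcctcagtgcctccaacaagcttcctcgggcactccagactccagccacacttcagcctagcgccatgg

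A pair of the named genotype-specific sites that held an AP-1 motif near the summit is shown as an example of the distal elements described below. The site near Serpina3n was KO-only and that near Tomm20, a mitochondrial import gene, WT-only, and the motif is in capitals.
Serpina3n, chr12:104415819-104415905, plus strand: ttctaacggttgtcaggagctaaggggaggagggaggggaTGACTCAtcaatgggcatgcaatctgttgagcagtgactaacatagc
Tomm20, chr8:126910739-126910825, plus strand: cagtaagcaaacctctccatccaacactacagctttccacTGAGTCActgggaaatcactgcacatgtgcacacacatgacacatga

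The 5 lists differed in depth and not along genotype alone. The background recovered from the deposited fold and p-values was 4.14, 0.593 and 1.22 reads per kb in KO replicates 1, 2 and 3, and 0.382 and 1.61 in WT replicates 1-2 and 3. The least significant kept peak rested on 33, 6 and 10 reads in the KO lists and on 3 and 13 in the WT lists. WT replicate 1-2 was kept whole and stood apart from the other lists. Its Jaccard index, the number of shared over the number of combined sites, was 0.738 to 0.745 with the KO lists and 0.756 with WT replicate 3. WT replicate 3 shared 0.788 to 0.847 with the KO lists, as much as the KO lists shared among themselves (0.792 to 0.849). Pairs of the same genotype averaged 0.800 and mixed pairs 0.781 (difference 0.0190, two-sided exact permutation p = 0.3, smallest possible 0.1), and the genotypes were not separated by this test. Without WT replicate 1-2 the difference was −0.00580.

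KO-only sites made up 1.74% and WT-only sites 1.12% of all sites. They were weak peaks close to the rank limit. The median rank of the KO-only sites was 19978, 18503 and 19565 in the 3 KO lists, against 8114 to 8311 for the sites found in all 5 lists. In the whole list of WT replicate 3, 387 of the 455 still had a peak of lower rank (median rank 27762, median 11 reads), whereas WT replicate 1-2 has no lower-ranked peaks to look at. The WT-only sites had median ranks of 18931 and 21584, and 289, 145 and 244 of the 294 had a lower-ranked peak in KO replicates 1, 2 and 3. Only 68 KO-only and 5 WT-only sites had no peak at any rank in the other genotype, a comparison that is unequal because KO replicate 1 holds 70843 intervals and the WT lists 24389 and 40992. The counts depended on each list. Leaving out KO replicate 1, 2 or 3 gave 773, 945 or 821 KO-only and 581, 448 or 475 WT-only sites, and leaving out WT replicate 1-2 or 3 gave 823 or 2435 KO-only sites, since fewer lists had to meet the rule.

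Both kinds of site lay away from promoters. Within 1 kb of a protein-coding start site were 63 KO-only (13.8%) and 52 WT-only sites (17.7%), against 36.7% of all sites. Introns held 186 KO-only (40.9%) and 123 WT-only sites (41.8%), against 31.5% of all sites. Intergenic DNA held 190 (41.8%) and 111 (37.8%), against 29.7%. Around the deleted gene, 10 KO-only and 4 WT-only sites lay within 20 Mb of Nr4a1 on chromosome 15, out of 396 sites there (1.51% of all sites).

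Few of the differences of 1 h had the same form at 0 h. Of the 455 KO-only sites, 103 (22.6%) had no kept peak in any of the 6 lists at 0 h and 165 (36.3%) had one in all 6. Of the 294 WT-only sites, 125 (42.5%) were absent from all 6 lists at 0 h and 50 were in all 6. Over all sites of 1 h, 13.6% had no kept peak at 0 h. The same genotype pattern was seen at 0 h for 14 KO-only and 10 WT-only sites, and the opposite one for 2 KO-only sites and 0 WT-only sites. These states count kept peaks, and most of the sites absent in that sense had a peak of lower rank at 0 h. Without a peak of any rank in the 6 whole lists at 0 h were 15 KO-only (3.30%) and 33 WT-only sites (11.2%).

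**Figure D1:**
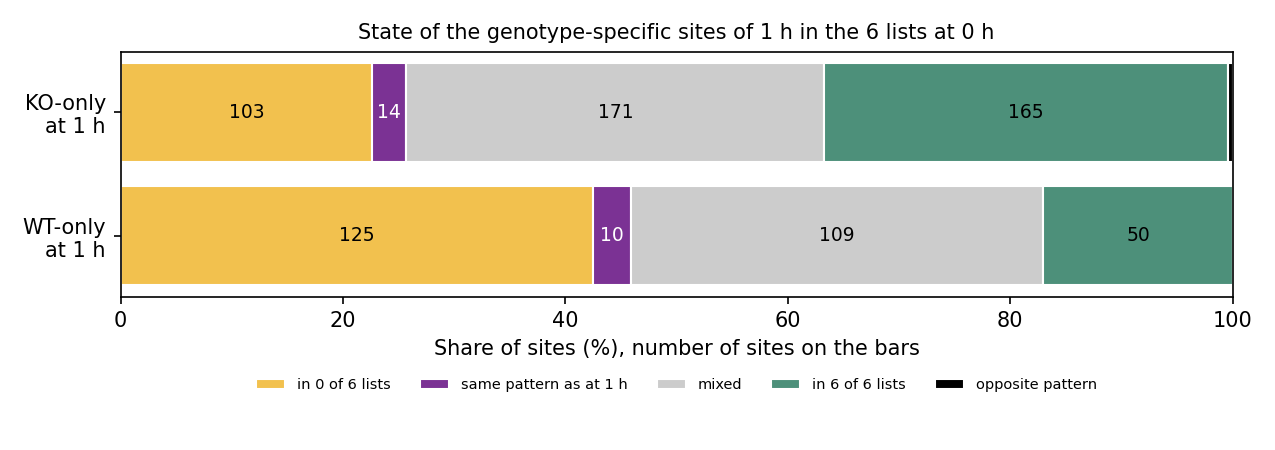
Share of the KO-only and WT-only sites of 1 h (x axis, %) by their state in the 6 lists at 0 h, with the number of sites on the bars. The segment of sites in 0 of 6 lists holds 103 KO-only and 125 WT-only sites, and that of sites in 6 of 6 lists 165 and 50.

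Sites are called LPS-gained where the 3 lists of their own genotype at 0 h held no kept peak, whatever lay below the rank limit. These were 112 KO-only (24.6%) and 136 WT-only sites (46.3%). Of the 3557 sites with no kept peak in any list at 0 h, 957 had a peak in all 5 lists at 1 h, 103 in KO alone and 125 in WT alone. Absent also from all 6 lists at 18 h were 51 of these KO-only and 84 of these WT-only sites.

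Whether the sites differed by genotype at other times was tested over the 12 lists at 0 and 18 h, which had no part in choosing them. The WT-only sites of 1 h were also found more often in WT at the other times. At 0 h they carried a kept peak in 38.1%, 33.3% and 30.3% of cases in the 3 KO lists and in 46.3%, 39.5% and 46.9% in the 3 WT lists. At 18 h the values were 17.7%, 27.6% and 26.5% in KO and 42.5%, 41.2% and 34.0% in WT. The groups did not overlap at either time. The mean difference, KO minus WT, was −12.8 points (exact permutation p = 0.005, two-sided, stratified by time, the smallest possible), against −5.69 points for all sites of 1 h in the same lists. Set against all sites in each list, an alternative chosen after the data were seen, it was −7.13 points (exact permutation p = 0.005). The widths of the peaks moved with this result. The WT lists at 0 and 18 h had median widths of 829 to 1241 bp and backgrounds of 4.62 to 9.75 reads per kb, and the KO lists 167 to 1149 bp and 0.720 to 7.65 reads per kb. In windows of 1 fixed width centred on every summit, the WT-only sites gave −2.34 points (exact permutation p = 0.1), which did not pass the threshold. That definition also changed which sites were WT-only, so the part of peak width was not tested on its own.

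For the KO-only sites the test did not pass the threshold, and the value depended on the selection. At 0 h, 68.6%, 57.6% and 55.4% of them carried a peak in the KO lists and 59.8%, 59.6% and 62.4% in the WT lists. At 18 h the shares were 43.3%, 47.7% and 54.5% in KO and 56.0%, 53.0% and 51.6% in WT. The mean difference was −2.56 points (exact permutation p = 0.375), and it was −4.58 (p = 0.045, exact) without KO 0 h replicate 1 and 3.12 (p = 0.06, exact) set against all sites. With all deposited intervals it was −31.8 points over 1760 sites, and with peaks that cover 50% of a site −27.1 points over 1105 sites (exact permutation p = 0.02 each).

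**Figure D2:**
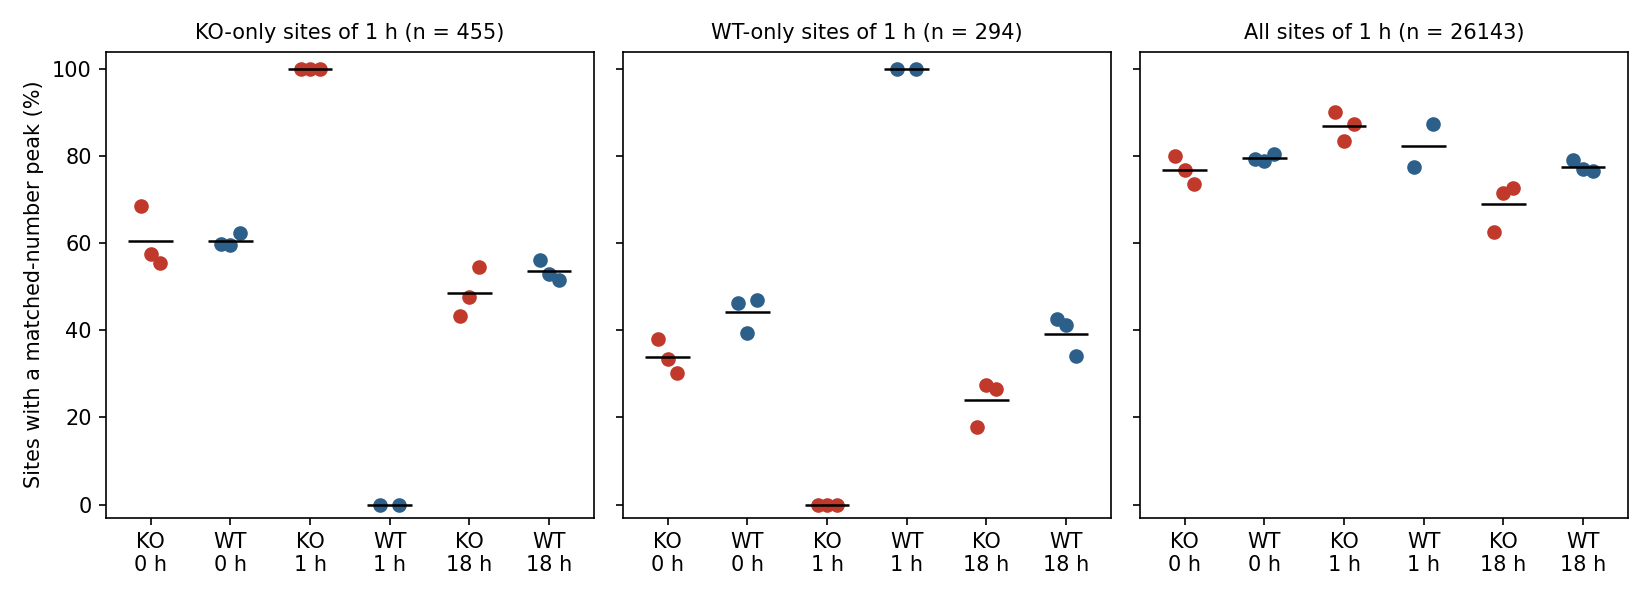
Share of sites with a kept peak (y axis, %) in each of the 17 lists, for the KO-only, the WT-only and all sites of 1 h. Points are lists, red for KO and blue for WT, and lines are group means. The values of 0 and 100% at 1 h follow from the choice of the sites. At 0 and 18 h the WT points lie above the KO points for the WT-only sites and overlap them for the KO-only sites.

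At all 3 times 8 sites kept one genotype pattern, 6 of them KO-only and 2 WT-only. Their number was 2 with the 10000 best peaks, 3 with 50% coverage, 5 with no peak in the other genotype's whole lists of 1 h and 11 with all deposited intervals. At 2 of the KO-only sites, in introns of Pebp4 (chr14:69850876-69851543 and chr14:70000305-70001123), a kept peak was present in 9 of 9 KO lists and no peak of any rank in 8 WT lists. Pebp4 is a phosphatidylethanolamine-binding protein, and its neighbour Egr3, an immediate-early zinc finger transcription factor, is the nearest start site for the second site, at 76.5 kb. At that site the ranks at 1 h were 8419, 16957 and 7920 in KO. A further site near Egr3 (chr14:70060192-70061099, 16.6 kb upstream) carried a kept peak in 8 of 9 KO and 0 of 8 WT lists, but 6 of the WT lists held a lower-ranked one. The other persistent KO-only sites lay in introns of Ano6 (chr15:95827760-95829223), which encodes a phospholipid scramblase, and of Mtus1 (chr8:41057152-41057819), and near Ifi203 (chr1:173961182-173962010), an interferon-inducible gene, and Serpina3n (chr12:104415517-104416137), a serine protease inhibitor. Each was kept in 9 of 9 KO and 0 of 8 WT lists, but 5, 6, 5 and 7 of the WT lists, in that order, held a lower-ranked peak. Of the persistent WT-only sites, that near Ddr2 (chr1:170136476-170136693), a collagen receptor gene, was kept in 8 of 8 WT and 0 of 9 KO lists.

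A WT-only site near the deleted gene was absent from all KO lists. The site at chr15:100443537-100443847, 18.6 kb upstream of the iron transporter gene Slc11a2 and 0.821 Mb from Nr4a1, had a kept peak in 7 of 8 WT lists and no peak of any rank in 9 KO lists. The remaining WT-only sites with no KO peak at any rank at 1 h were the promoters of Cysltr2 (chr14:73049082-73049439), a leukotriene receptor, and Trim30d (chr7:104507560-104508235), an intron of Alpk1 (chr3:127732643-127733129), a kinase that senses bacterial sugar nucleotides, and an intergenic site near Olfml3 (chr3:103695645-103695924). The Cysltr2 and Alpk1 sites had no kept peak at 0 h, where lower-ranked peaks lay in 3 and 1 of the WT lists and in 0 KO lists. The Trim30d promoter carried the WT pattern already at 0 h, although 2 KO lists at 18 h held it too.

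The KO-only site with the best mean rank was gained with LPS. It lies in an intron of Ncoa2 (chr1:13258036-13258282), a coactivator of nuclear receptors, and had ranks of 11068, 3354 and 4467 with 71, 23 and 40 reads in the KO lists. No list at 0 h and no WT list at any time held a peak of any rank there, and 1 KO list at 18 h did. Further KO-only sites with no kept peak at 0 h, but with lower-ranked ones in 1 or more lists of each genotype, lay in an intron of Xrcc4 (chr13:89828481-89828838), a DNA repair gene whose neighbour Vcan has the nearest start site, and near Slc44a3 (chr3:121545875-121546616). At these sites WT replicate 3 held a peak beyond the limit, at ranks 26570 and 25131. The best-ranked KO-only promoters were those of Smco3, S100a8, Creg2, Bphl and Tnfrsf4, which encodes the costimulatory receptor OX40, and at the last pair no WT list of 1 h held a peak of any rank. On the WT side they were those of Ankrd35, Lhfpl2, Cxcl1, Maml3, a Notch coactivator gene, and Ncoa1, another coactivator of nuclear receptors. The Ncoa1 promoter ranked 10003 and 3703 in WT and 27391, 31374 and 26119 in KO, and all 6 lists at 0 h held it.

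The S100a8 promoter and an intergenic site near S100a9 belong to genes of the neutrophil marker list. The S100a8 promoter (chr3:90668708-90669496) ranked 13680, 6666 and 12019 in KO and 27127 in WT replicate 3, with no peak in WT replicate 1-2. It carried a kept peak in all 6 lists at 0 h and all 6 at 18 h, so the WT lists at 1 h were the exception. Peaks were assigned to the gene with the nearest start site, up to 100 kb away, which gave the 5 neutrophil marker genes 4, 3 and 4 kept peaks in KO and 0 and 2 in WT. Ly6g had none in any of the 5 lists. Elane and Mpo had 0 or 1 peak in each list of either genotype. Promoters of the macrophage markers carried peaks for 10 or 11 of 11 genes in every list. In bulk chromatin, fewer cells of a type and fewer open copies per cell cannot be told apart, and the part of other cells in these differences was not tested.

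The best-ranked WT-only site at a listed gene was the Cxcl1 promoter. In the deposited lists its peak (chr5:90890727-90891954, 129 bp downstream of the start site) ranked 4969 and 11791 in WT, with 12 and 26 reads, and 26180, 33827 and 24549 in KO, with 30, 3 and 10 reads. The KO peaks were therefore beyond the limit and not absent, that of KO replicate 3 by a small margin. None of the 6 lists at 0 h and none of the 6 at 18 h held a peak of any rank there. The NF-kB matches printed above lie inside this site, 70 and 71 bases before the start site.

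The other WT-only sites at listed genes also had no kept peak at 0 h, with 1 exception. They lay in an intron of Jdp2 (chr12:85628706-85630466), an AP-1 family repressor, 2.68 kb upstream of the anti-inflammatory cytokine gene Il10 (chr1:131016976-131017442), downstream of the monocyte chemoattractant gene Ccl7 (chr11:82047600-82048479) and in an intron of Nfkb1 (chr3:135686544-135686837), the gene of the NF-kB subunit p50. All 4 were absent from the kept peaks at 0 h in both genotypes, though at Ccl7 and at Nfkb1 3 WT lists and 1 KO list held a lower-ranked peak then. At the Jdp2 and Il10 sites no list at 0 or 18 h held a peak of any rank. The exception was a site 49.3 kb upstream of Dusp5 (chr19:53479550-53479918), a phosphatase gene that limits ERK signalling, which 1 KO list held at 0 h and which has an NBRE. On the KO side the listed genes with a site were S100a8, S100a9, Egr3 (3 sites), Lif, a cytokine gene of the interleukin-6 family, Rel, an NF-kB subunit gene, Itgam, the CD11b gene, and Fosl2, an AP-1 member. Of these the Rel site (chr11:23805697-23806362) had no kept peak at 0 h, where 2 KO and 3 WT lists held a lower-ranked one, and the Lif (chr11:4258506-4259229) and Itgam (chr7:128065497-128066108) sites were in all 6 lists there.

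Because most sites were present in both genotypes, the order of their ranks was described as well. A total of 19102 sites had a peak of any rank in all 5 deposited lists. At 10.5% of them (2011 sites) every KO list ranked the site better than either WT list, and at 11.6% (2212 sites) both WT lists ranked it better than every KO list. The 5 lists can be divided into groups of the KO and WT sizes in 10 ways. If every order of the lists were equally likely, a share of 0.1 of the sites would fall in each class. Both observed shares lie near that value, and whether they exceed it was not tested. The observed shares are the background against which the gene lists are read. The rule for a ranked site is not symmetric, because the deposited lists differ in length and every ranked site needs a peak among the 24389 of WT replicate 1-2. None of the KO-only sites could therefore be ranked, while 132 of the 2212 sites better in WT were WT-only sites, whose order restates their choice. Among the 16068 sites with a kept peak in all 5 lists, which are free of this limit, 1915 (11.9%) ranked better in KO and 1662 (10.3%) in WT.

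**Figure D3:**
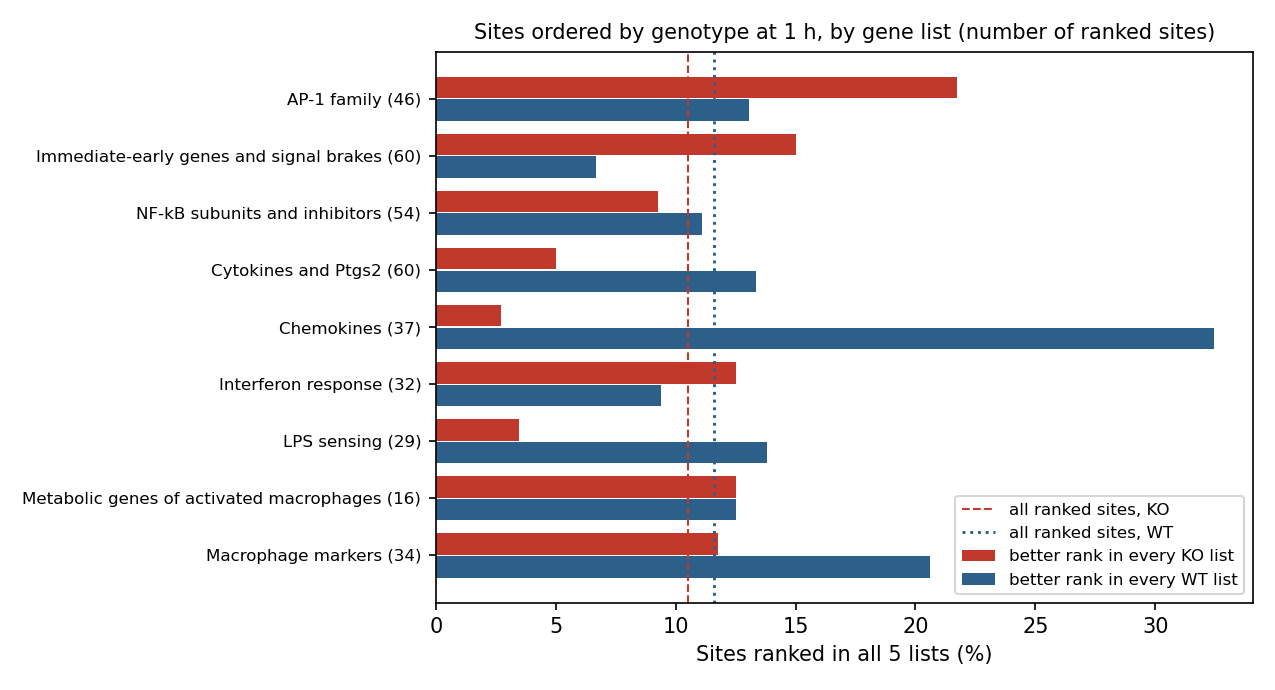
Share of the sites assigned to the genes of each list (x axis, %) that ranked better in every KO list (red) or in every WT list (blue) at 1 h, for lists with at least 16 ranked sites (number in parentheses). The dashed and dotted lines mark the shares over all 19102 ranked sites. The blue bar of the chemokines (32.4%) and the red bar of the AP-1 family (21.7%) lie farthest beyond their lines.

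Chemokine loci were ordered toward WT more often than all sites. Of 37 ranked sites at chemokine genes, 12 (32.4%) ranked better in both WT lists and 1 (2.70%) in the KO lists. Of the 12, 2 were the WT-only sites at Cxcl1 and Ccl7. Among the 30 chemokine sites kept in all 5 lists, 10 (33.3%) ranked better in WT and 1 (3.33%) in KO. The 12 sites belong to Cxcl1, Cxcl2, Ccl2, Ccl5, Ccl7 and Ccl9, which lie in gene clusters on chromosomes 5 and 11, so neighbouring sites are not independent. The Cxcl2 promoter ranked 717 and 861 in WT and 1425, 1977 and 1551 in KO. The Ccl7 promoter ranked 1317 and 1654 in WT and 6283, 4504 and 6351 in KO, and both WT values lie well outside the KO range. A site 28.5 kb upstream of Ccl2, which attracts monocytes, ranked 330 and 237 in WT and 598, 519 and 1549 in KO. The single site with the reverse order lay 4.92 kb upstream of the Cxcl10 start site, an interferon-inducible chemokine gene, at 7649, 3834 and 7148 in KO and 9078 and 8517 in WT. The median log2 ratio of the WT to the KO rank was −0.17 at the chemokine sites and −0.02 over all ranked sites.

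The number of kept peaks at the 16 chemokine genes, of which 11 had a site, was 37, 41 and 38 in KO and 48 and 42 in WT, without overlap. A test of this count was not planned, and the chemokine genes stood out in these same 5 lists. Its value (exact permutation p = 0.1, the smallest possible) is therefore no further support. At 0 h the counts were 20 to 24 in both genotypes, and at 18 h they were 31, 33 and 30 in KO and 25, 29 and 31 in WT. Of the 12 sites, 6 had a peak in all 6 lists at 0 h, where 1 of them ranked better in every WT list and 0 in every KO list, against 7.67% and 5.98% of all sites ranked at 0 h. At 18 h 10 were ranked, 3 of them better in every WT list (against 12.1% of all sites) and 0 in every KO list. Without WT replicate 1-2, 17 of 39 chemokine sites ranked better in WT (43.6%, against 23.3% of all sites), and without WT replicate 3, 18 of 37 (48.6%, against 33.3%). The peaks of WT replicate 1-2 were the shortest of the 5 lists (median 338 bp, against 541 to 851 bp), and the part of peak width in these counts was not tested.

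Cytokine loci were near the background toward WT and below it toward KO. Of 60 ranked sites at cytokine genes and Ptgs2, 8 (13.3%) ranked better in WT and 3 (5.00%) in KO. The 8 WT sites were those of Il1b (2 sites), Il1a, Il1rn, Il10, Il12b, Il27 and Csf3. The merged site that spans Il1b (chr2:129363077-129371738) had best ranks of 7328 and 7832 in WT and 16892, 11752 and 13643 in KO, and in WT replicate 3 the peak was not at the promoter. A site 27.0 kb upstream of Il12b, a subunit gene of interleukin-12 and interleukin-23, ranked 5204 and 7049 in WT and 9624, 12331 and 25406 in KO. The KO sites were 2 of Lif and 1 of Csf2. The Lif site 27.7 kb downstream of the start site ranked 5918, 6501 and 5412 in KO and 10156 and 8921 in WT.

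At AP-1 loci more sites were ordered toward KO than over all sites, while their median rank ratio was near 0. Of 46 ranked sites at the 13 AP-1 family genes, 10 (21.7%) ranked better in every KO list and 6 (13.0%) in both WT lists. Among the 39 kept in all 5 lists, the counts were 10 (25.6%) and 4 (10.3%). The KO sites were those of Atf3 (3 sites), Fos and Maff (2 each), Batf, Fosl2 and Jdp2. Those of Fos, Jdp2 and Batf lie close together on chromosome 12 and those of Atf3 on chromosome 1, so neighbouring sites are not independent. The Maff promoter, of a small Maf factor gene, ranked 956, 869 and 413 in KO and 4898 and 1686 in WT. The Fos promoter ranked 3054, 6137 and 3590 in KO and 6736 and 7965 in WT, and a site 59.1 kb downstream of the Fos start site ranked 721, 438 and 736 in KO and 1685 and 1150 in WT. An intronic site of Batf, an AP-1 factor of lymphoid and myeloid cells, ranked 607, 609 and 506 in KO and 1436 and 1689 in WT. Of the 10 sites, 8 had a peak in all 6 lists at 0 h, and of these 0 ranked better in every KO list and 1 in every WT list at that time, against 5.98% and 7.67% of the 16050 sites ranked in all 6 lists. At 18 h 7 were ranked, 2 of them better in every KO list (28.6%, against 4.96%) and 0 in every WT list.

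The reverse order held at sites of Jun, Fosb (2 sites), Jdp2, Batf and Atf3. The merged site at the Jdp2 promoter ranked 5530 and 8542 in WT and 10852, 14423 and 10961 in KO, so this gene held sites of both orders. The median log2 ratio of the ranks over the AP-1 sites was −0.00, and the number of kept peaks at the 13 genes was 55, 61 and 57 in KO and 64 and 62 in WT (difference −5.33, exact permutation p = 0.2, smallest possible 0.1). The order depended on the lists. Without KO replicate 2, 14 sites ranked better in KO and 13 in WT, out of 51 (27.5% and 25.5%, against 17.3% and 18.3% of all sites). Without WT replicate 1-2 the counts were 20 and 11 of 55 (against 24.9% and 23.3%), and without WT replicate 3 they were 17 and 14 of 46 (37.0% and 30.4%, against 28.5% and 33.3%).

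**Figure D4:**
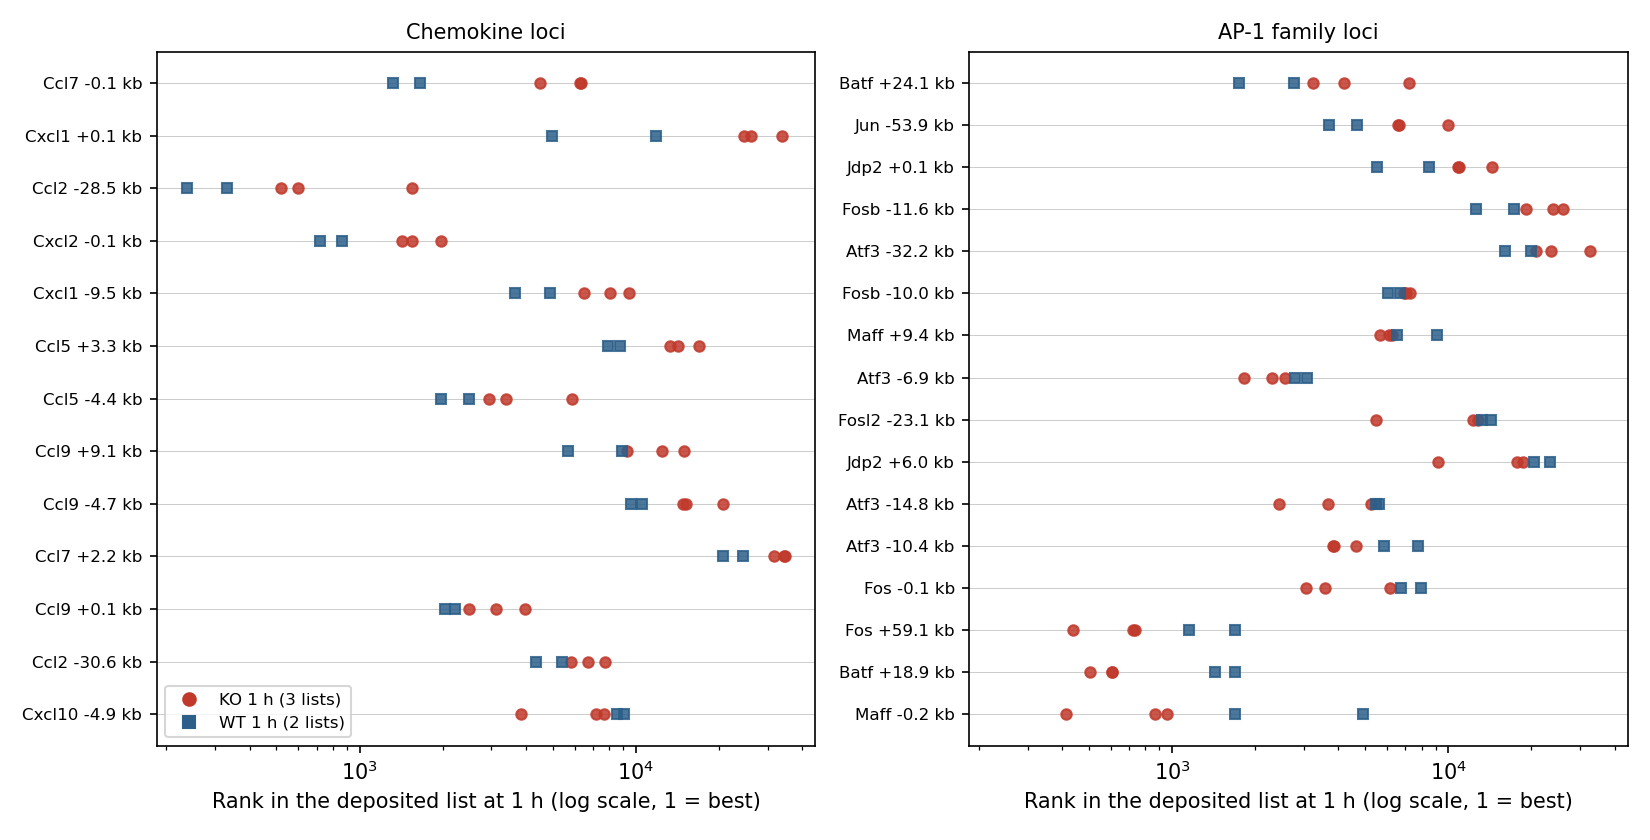
Ranks at 1 h (x axis, log scale, 1 is the most significant peak) of the sites ordered by genotype at chemokine genes (left) and AP-1 family genes (right), labelled with the gene and the distance from its start site. Red circles are the 3 KO lists and blue squares the 2 WT lists. At 12 of the 13 chemokine sites the blue squares lie to the left, and at 10 of the 16 AP-1 sites the red circles do.

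Most other lists lay closer to the background. Of 60 ranked sites of immediate-early genes, which respond to signals without new protein synthesis, and of signal brakes, 9 (15.0%) ranked better in KO and 4 (6.67%) in WT. The KO sites included 3 neighbouring sites of Egr3, on either side of the KO-only site at chr14:70060192-70061099. They also included the promoter of Dusp1, a phosphatase gene that ends MAP kinase signalling. This promoter ranked 786, 1095 and 658 in KO and 1225 and 1424 in WT. The WT sites belonged to Klf6 (2 sites), Btg2 and Ier5. At genes of NF-kB subunits and inhibitors 5 and 6 of 54 sites (9.26% and 11.1%), and at interferon response genes 4 and 3 of 32 sites (12.5% and 9.38%), were ordered toward KO and WT, both near the background. At genes of LPS sensing the counts were 1 and 4 of 29, and at those of metabolism in activated macrophages 2 and 2 of 16. At macrophage marker genes 4 of 34 sites (11.8%) ranked better in KO and 7 (20.6%) in WT, so that list stood above the background toward WT as the chemokines did, and the part of cell composition in these orders was not tested. At the 3 Nr4a receptor genes 9 sites were found, 0 of them KO-only or WT-only, and 1 each ranked better in KO and in WT, both at Nr4a1 itself. The Nr4a1 promoter peak ranked 10308, 8992 and 7457 in KO and 7501 and 5414 in WT, so it does not check the genotype labels. At 18 h a kept peak lay there in 0 of 3 KO and 1 of 3 WT lists, and a peak of any rank in 0 of 3 KO and 3 of 3 WT lists. The whole WT lists at 18 h are longer, with 46364 to 61492 intervals against 29568 to 36136 in KO.

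The shares of NBRE and NF-kB motifs were lower at KO-only than at WT-only sites. An NBRE lay at 0 of 455 KO-only sites, which allows a share of up to 0.659% by a floor of 3 counts and 0.837% by the Wilson interval, at 9 of 294 WT-only sites (3.06%, 95% Wilson interval 1.62 to 5.71%) and at 256 of all 26143 sites (0.979%). Among the sites ranked in all 5 lists it lay at 13 of the 2011 better in KO (0.646%) and at 43 of the 2212 better in WT (1.94%, interval 1.45 to 2.61%), against 1.00% of the 19102. Of the 43, 4 were WT-only sites counted above. Among the sites kept in all 5 lists the NBRE lay at 13 of 1915 better in KO (0.679%) and 24 of 1662 better in WT (1.44%), against 0.890% of the 16068. Of the 43 sites, 28 were ranked at 0 h, 2 of them better in every KO list and 1 in every WT list, and 22 at 18 h, 5 better in every KO list (22.7%, against 4.96% of all sites) and 1 in every WT list. Over 1 kb from a start site the shares were 0.957% and 2.93%, against 1.48%. An NF-kB motif lay at 3.30% of the KO-only sites (interval 2.01 to 5.37%), 9.52% of the WT-only sites (6.67 to 13.4%) and 5.89% of all sites. Egr motifs lay at 2 of the 455 KO-only (0.440%) and 9 of the 294 WT-only sites (3.06%), against 3.09% of all sites, and over 1 kb from a start site at 0 KO-only and 1 WT-only site. AP-1 motifs lay at 16.3% of KO-only, 19.4% of WT-only and 17.8% of all sites, with intervals that overlap. Over 1 kb from a start site they lay at 18.1% of KO-only sites (interval 14.6 to 22.2%) and 23.1% of WT-only sites (18.3 to 28.8%). The share over all such sites was 25.6% (24.9 to 26.2%), above the interval of the KO-only sites. Sites are not replicates, and the intervals and limits cover counting error only.

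**Figure D5:**
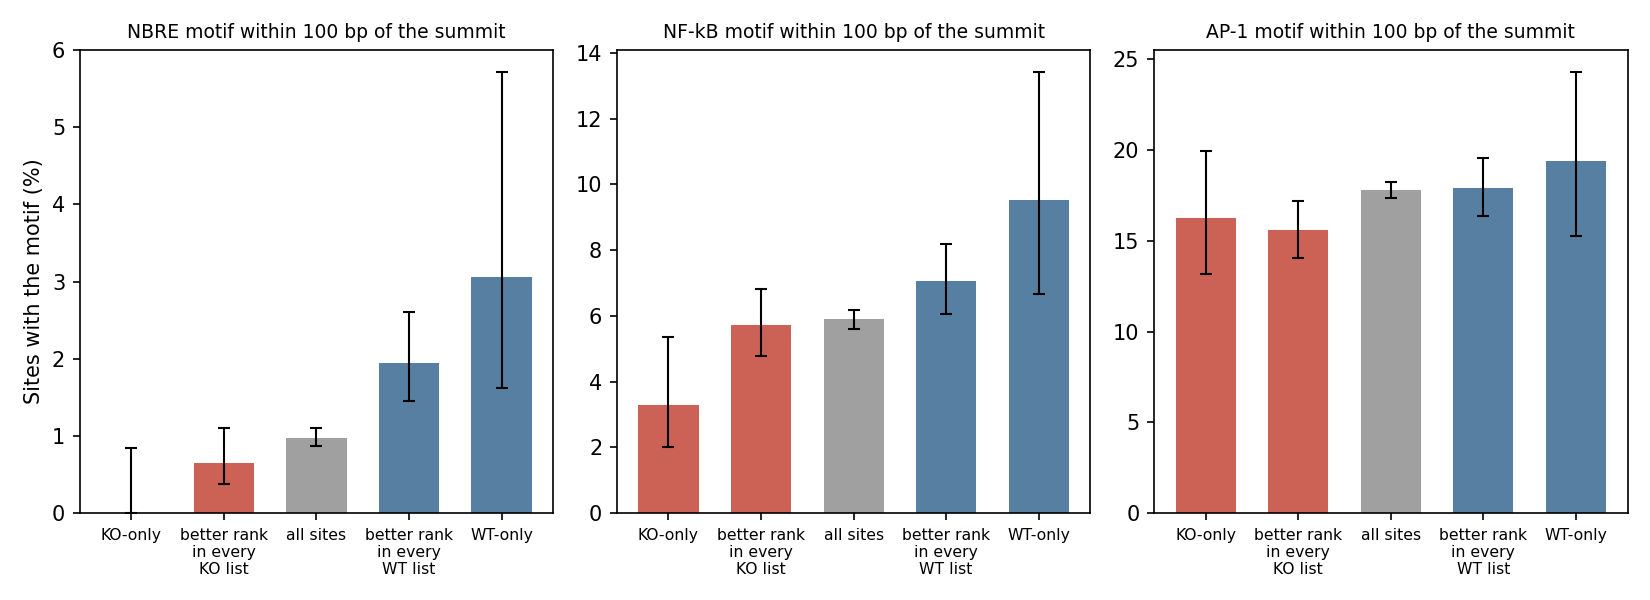
Share of sites with an NBRE, NF-kB or AP-1 motif within 100 bp of the summit (y axes, %, each from 0 with its own range) among KO-only sites, sites ranked better in every KO list, all sites, sites ranked better in every WT list and WT-only sites. Bars are shares and error bars 95% Wilson intervals. The NBRE share goes from 0 at KO-only to 3.06% at WT-only sites, while the AP-1 intervals of KO-only and WT-only sites overlap.

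Over the lists, the share of peaks more than 1 kb from a start site with an NBRE was 1.16 to 1.27% in the 3 KO lists and 1.46 and 1.61% in the WT lists, without overlap. These are the lists that chose the sites, so the shares describe the same data and are no further test. The distal NF-kB share overlapped, at 6.64 to 7.17% in KO and 6.84 and 7.31% in WT (difference −0.117 points, exact permutation p = 0.7), and the distal Egr share was 0.532 to 0.587% in KO and 0.615 and 0.660% in WT. The distal AP-1 share was 23.8 to 27.1% in KO and 23.6 and 27.0% in WT (difference 0.137 points, exact permutation p = 0.7), and it turned to −1.53 points without WT replicate 1-2 and −0.684 without KO replicate 1. The NBRE count moved with the selection. With all deposited intervals it was 13 of 1760 KO-only and 0 of 22 WT-only sites, with 50% coverage 5 of 1105 and 7 of 200, and at sites with no peak in the whole lists of the other genotype 0 of 68 and 0 of 5. Within 50 bp of the summit 4 of the 9 WT-only sites held the motif. With the 10000 best peaks it was 2 of 176 KO-only and 4 of 147 WT-only sites, and without KO replicate 1, 2 or 3 it was 0 of 773, 4 of 945 or 7 of 821 and 14 of 581, 12 of 448 or 16 of 475. Without WT replicate 1-2 or 3, 4 of 823 or 15 of 2435 KO-only sites held the motif.

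The 9 WT-only sites with an NBRE were at Rngtt, Map4, Itga5, Vat1, Rad51b, Stk35, Plekhm1, Lrrfip1 and Dusp5, and their motifs are printed above. Itga5 encodes an integrin chain that binds fibronectin, Rngtt an mRNA capping enzyme and Rad51b a recombination protein. The Rngtt site (chr4:33338073-33338295) carried the WT pattern at 0 h, with 3 of 3 WT and 0 of 3 KO lists. The Map4, Rad51b and Lrrfip1 sites had no kept peak at 0 h, where 3 WT lists and 1, 2 and 2 KO lists held lower-ranked ones, and the other 5 were mixed. In the whole lists at 1 h the KO ranks of these sites, where a peak existed, were 25166 or worse, and the WT ranks were 11165 to 24349.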

How the data were processed

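Nuclei of BMDMs were tagmented with Tn5, and the libraries were sequenced in pairs. The deposited lists are narrowPeak files on mm10, 1 per sample. The authors' processing notes name cutadapt 2.6 and DiffBind 3.0.15, and the study's methods name the snakeATAC pipeline in its default configuration. The values of its peak calling settings are not given in the sources used here. Per the file columns, the deposited values are a fold ratio of pileup over background and −log10 p-values and q-values for each peak. No list holds read totals. The fold and p-values gave whole reads at the summit (tolerance 0.05) for 100% of the entries, and from them the depth.

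Identical intervals were collapsed to the highest −log10 p-value, ties at the rank limit (up to 13.9% of the kept peaks) were broken at random with seed 1, and peaks were merged with 1 bp of overlap or more. Start sites were taken from GENCODE vM21 and promoters from RefSeq, both on GRCm38, and 157 of the 158 listed genes had a protein-coding start site. Motifs were searched 100 bp to each side of the summit of the best-ranked peak. Tests were exact permutation tests over lists, with the threshold 0.05, run in Python 3.11.15 with numpy 2.4.6, pandas 2.3.3, scipy 1.17.1 and pysam 0.24.0, and tested on simulated lists. The sites, gene lists and rules were chosen with earlier results of these data known. Named sites were the 10 best-ranked per direction with no peak in the other genotype's whole lists, up to 10 with the same pattern at all times, the 5 best absent at 0 h, the 5 best promoters and all at listed genes. Some of the named sites are not reported here. Replicate numbers did not pair the lists at 0 and 18 h. Alternatives are given in the closing section.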

Additional observations from a re-analysis of the deposited data

How the results depend on the processing

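The count of sites depended on the selection. KO-only sites numbered 176 with the 10000 best peaks, 1760 with all deposited intervals, 1105 when a peak had to cover 50% of a site and 68 with no peak in the whole lists of the other genotype, and 773 to 2435 when a list was left out. WT-only sites numbered 147, 22 and 5 with the first, second and last of these, and 448 to 581 when a KO list was left out. With 1 WT list left, no WT-only count was possible, because a site needed 2 lists. For the KO-only sites at 0 and 18 h, the difference (KO minus WT, points) was −31.8 with all deposited intervals and −27.1 with 50% coverage (exact permutation p = 0.02 each), 6.13 (p = 0.135, exact) without any peak in the whole WT lists and 3.12 (exact p = 0.06) set against all sites of 1 h, an alternative chosen after seeing the data. It was −4.58 to −1.26 when a list was left out. For the WT-only sites it was −10.3 at 0 h alone and −15.3 at 18 h alone (exact permutation p = 0.1 each, the smallest possible), −2.34 in windows of fixed width (exact p = 0.1), −62.9 with all deposited intervals (22 sites), −50 with no peak in the whole KO lists (5 sites, exact p = 0.005 each) and −14.1 to −11.3 when a list was left out (highest exact p = 0.01). With the replicate block the differences were −2.56 (exact p = 0.4375) and −12.8 (exact p = 0.03125, the smallest possible), although the correlations of same-numbered lists were −0.0200 to 0.0140. The AP-1 share turned to −1.40 with the 10000 best peaks and −3.04 with all deposited intervals, and ranged from −1.53 to 1.80 when a list was left out. The difference in peaks at AP-1 genes was 34.2 with all deposited intervals and −7 to −4 when a list was left out, and that of the Jaccard index −0.00580 to 0.0745. No 5 Mb bin met the rule for dense bins, at least 5 genotype-specific sites that make up 14.3% of its sites, so that alternative gave no value. The highest share among bins with at least 5 such sites was 13.2%. The lowest depth, 3 reads at the weakest kept peaks of WT replicate 1-2, limits both kinds of call. The orders of ranks without a list or among kept peaks and the motif counts under other selections were also chosen after seeing the data.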
